A study of Mus musculus with 9 samples.

Results

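CXC chemokines are small secreted proteins with a pair of cysteines set apart by 1 residue, and they guide leukocytes along gradients to receptors of the CXCR group. This account describes 8 of them, the genes Cxcl1, Cxcl2, Cxcl5, Cxcl9, Cxcl10, Cxcl12, Cxcl14 and Cxcl16, taken by symbol from a count table of 17156 genes. All 8 were present in the table, and 7 passed the filter on low counts that left 13613 genes for testing. The exception was Cxcl14, which had 0 to 2 counts in every library.

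The cells were wild-type pancreatic stellate cells of mouse strain C57BL/6J, fibroblast-like cells of the pancreas kept as lines. Cells labelled CM-JAKi were grown for 4 days in medium conditioned by pancreatic tumour organoids with 500 nM AZD1480, an inhibitor of JAK kinases. Cells labelled CM had such medium without the inhibitor, and cells labelled MG-CM had control medium of DMEM with 5% FBS, which the labels also name as Matrigel-conditioned. Each condition had 3 libraries of total RNA depleted of ribosomal RNA. Replicate 1 came from the line PSC4, and replicates 2 and 3 from cultures named PSC5-I and PSC5-II of the line PSC5. Each replicate number had its own source of tumour organoid medium, so line and source change together, and the labels name no vehicle for the cells without the inhibitor.

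The libraries held 25625806 to 32466018 counts. Levels are given as CPM (counts scaled to a common library total, with TMM factors), and changes as log2 fold changes with their standard errors. A gene is called when the adjusted p is under 0.05 in edgeR's quasi-likelihood test with Benjamini-Hochberg adjustment over all 13613 genes, and every adjusted p below is of that test unless another is named. A fit with the replicate number as a block, which takes out differences between replicate numbers that the conditions share, was the main alternative. Its adjusted p is given where it changes a call of a member. Cells in MG-CM had no tumour organoid medium, so the block cannot take the source of that medium out of comparisons with MG-CM. The 10 fibroblast and stellate markers looked at were all present, with a summed level of 6765 to 7808 CPM in CM-JAKi, 5096 to 8243 CPM in CM and 5622 to 6214 CPM in MG-CM. The lowest of them was the stellate marker Des, with means of 2.30, 2.00 and 1.71 CPM in the same order. Single markers moved in both directions: the proteoglycan Dcn rose in CM against MG-CM (2.86 ± 0.53) and fell in CM-JAKi against CM (-2.77 ± 0.53), Vim fell in CM (-1.03 ± 0.26), and the collagens Col1a1 and Col1a2 rose in CM-JAKi against CM (0.74 ± 0.16 and 1.30 ± 0.20). Markers of other cell types were low. The ductal list summed to 12.7 to 31.3 CPM in CM-JAKi, 17.0 to 23.3 CPM in CM and 18.3 to 23.0 CPM in MG-CM. Epcam and Cdh1 had 0 to 6 counts a library, and most of the sum was Krt19 and Muc1. Summed over 3 libraries in CM-JAKi, CM and MG-CM, Krt8 had 41, 24 and 1 counts and Krt18 93, 141 and 58. In the same order, Epcam had 11, 10 and 3 counts, Cdh1 10, 13 and 2, and Cldn4 7, 5 and 2. Krt7 had 69, 138 and 129 counts. Krt7, Krt8 and Krt18 were not called in any comparison, with or without the block. The part of ductal cells in the results of the members was not tested. Krt19 had means of 14.5, 3.08 and 8.19 CPM in CM-JAKi, CM and MG-CM, and Muc1 3.76, 13.4 and 10.1 CPM. In CM-JAKi against CM, Muc1 fell (-1.83 ± 0.48, adjusted p = 0.0326). Krt19 was called higher there only with the block (2.23 ± 0.82, adjusted p = 0.0914, 0.00358 with the block). In CM against MG-CM, Krt19 was called lower only with the block (-1.41 ± 0.81, adjusted p = 0.299, 0.0156 with the block). The acinar list summed to 5.66 to 7.89, 9.56 to 14.0 and 7.27 to 8.53 CPM in CM-JAKi, CM and MG-CM. In bulk RNA, fewer cells of a type and less RNA per cell cannot be told apart.

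The members fall into groups by receptor. Cxcl1, Cxcl2 and Cxcl5 carry the ELR motif before the cysteines and draw neutrophils through Cxcr2, and their transcription is classically driven by NF-kB downstream of interleukin 1 and TNF. Cxcl9 and Cxcl10 draw activated T cells and natural killer cells through Cxcr3 and are textbook interferon-induced genes, a route that runs through JAK kinases and STAT factors. Cxcl12 is made by stromal cells without stimulation and signals through Cxcr4, with Ackr3 (Cxcr7 in the table) as a scavenger. Cxcl16 is made as a transmembrane protein, is shed by Adam10 and binds Cxcr6.

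The promoters show where motifs of these pathways stand. RefSeq promoter windows (GRCm38.p6, a later build than the mm9 named for the counts) were at hand for 6 of the 8 members, and the 250 bases before the annotated start were searched on both strands for 3 motifs. These were a kappa-B form (GGGA, any 4 bases, CC) bound by NF-kB, an ISRE core (GAAA, any 2 bases, GAAA) bound by interferon-activated STAT and IRF factors, and a GAS form (TTC, any 3 bases, GAA) bound by STAT dimers. Of all 32851 windows, 17.6% held the kappa-B form, 2.98% the ISRE core and 7.02% the GAS form. The windows of the ligands that moved most are shown 5′ to 3′, with matches in capitals.
Cxcl1 (chr5:90890995-90891244, plus strand): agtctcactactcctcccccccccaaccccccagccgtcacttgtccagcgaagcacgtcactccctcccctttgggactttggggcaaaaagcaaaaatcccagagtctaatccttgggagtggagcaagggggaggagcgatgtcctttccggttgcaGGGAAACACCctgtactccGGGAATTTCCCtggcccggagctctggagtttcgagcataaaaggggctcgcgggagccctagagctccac
Cxcl2 (chr5:90903649-90903898, plus strand): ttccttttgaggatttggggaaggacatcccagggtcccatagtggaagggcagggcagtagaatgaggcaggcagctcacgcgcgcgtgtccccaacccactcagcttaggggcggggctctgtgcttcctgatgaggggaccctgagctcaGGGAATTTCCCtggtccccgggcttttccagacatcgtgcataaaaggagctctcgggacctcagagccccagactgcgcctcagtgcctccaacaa
Cxcl9 (chr5:92328080-92328329, minus strand): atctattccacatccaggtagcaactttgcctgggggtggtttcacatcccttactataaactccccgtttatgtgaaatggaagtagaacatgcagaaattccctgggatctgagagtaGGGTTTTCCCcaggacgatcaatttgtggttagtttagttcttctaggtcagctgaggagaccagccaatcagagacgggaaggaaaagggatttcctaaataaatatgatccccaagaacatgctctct
Cxcl10 (chr5:92348890-92349139, minus strand): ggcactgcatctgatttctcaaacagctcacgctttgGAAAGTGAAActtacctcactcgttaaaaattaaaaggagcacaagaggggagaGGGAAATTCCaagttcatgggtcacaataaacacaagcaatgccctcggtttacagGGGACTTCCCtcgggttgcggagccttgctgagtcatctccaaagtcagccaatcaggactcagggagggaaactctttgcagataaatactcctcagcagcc
Cxcl1 and Cxcl2 share the letters GGGAATTTCCC, which hold a kappa-B match on each strand, shifted by 1 base. In Cxcl1 this run begins 71 bases before the start, and another match begins 90 bases before it. Cxcl10 was the one gene of these 4 with an ISRE core, GAAAGTGAAA, beginning 213 bases before the start. It also had kappa-B matches beginning 159 and 103 bases before the start. Cxcl9 had 1 kappa-B match and neither of the other forms in this window, and the Cxcl12 window held none of the 3 forms. The window of Cxcl14, a member with almost no counts here, also held an ISRE core, beginning 172 bases before the start, and the 1 GAS match among the 6 windows, beginning 191 bases before it. A match is a run of letters and says nothing of binding.

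**Figure D1:**
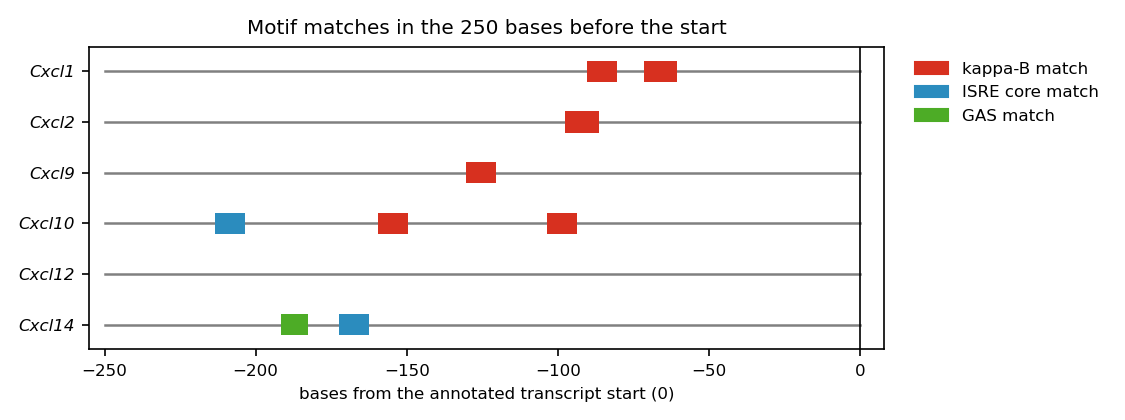
Positions of kappa-B (red), ISRE core (blue) and GAS (green) matches in the 250 bases before the annotated transcript start of 6 CXC chemokine genes, with distance from the start in bases on the x axis. Cxcl10 and Cxcl14 each hold an ISRE core match, Cxcl14 holds the GAS match, and Cxcl1, Cxcl2, Cxcl9 and Cxcl10 each hold a kappa-B match.

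The 8 transcripts differed widely in level. With counts divided by the median length of each gene's coding transcripts (GENCODE M21), Cxcl12 ranked first in each of the 9 libraries, at 602 ± 61.2 CPM per kb in CM-JAKi, 335 ± 99.7 in CM and 534 ± 106 in MG-CM (SD, n = 3). Cxcl10, Cxcl5 and Cxcl1 followed in CM, at 157 ± 65.0, 86.5 ± 63.6 and 59.8 ± 31.0 CPM per kb, and their spreads overlapped. Cxcl16 was at 31.7 ± 6.43 CPM per kb in CM-JAKi, 16.8 ± 2.65 in CM and 15.5 ± 3.00 in MG-CM. Cxcl2, Cxcl9 and Cxcl14 were the 3 lowest in each library, in that order. The place of Cxcl12 depends on which of its transcripts are made, since its 3 coding transcripts run from 1878 to 5627 bases. With the longest length for every gene, it stayed first in all libraries but 1, CM replicate 1, where Cxcl10 was above it.

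**Figure D2:**
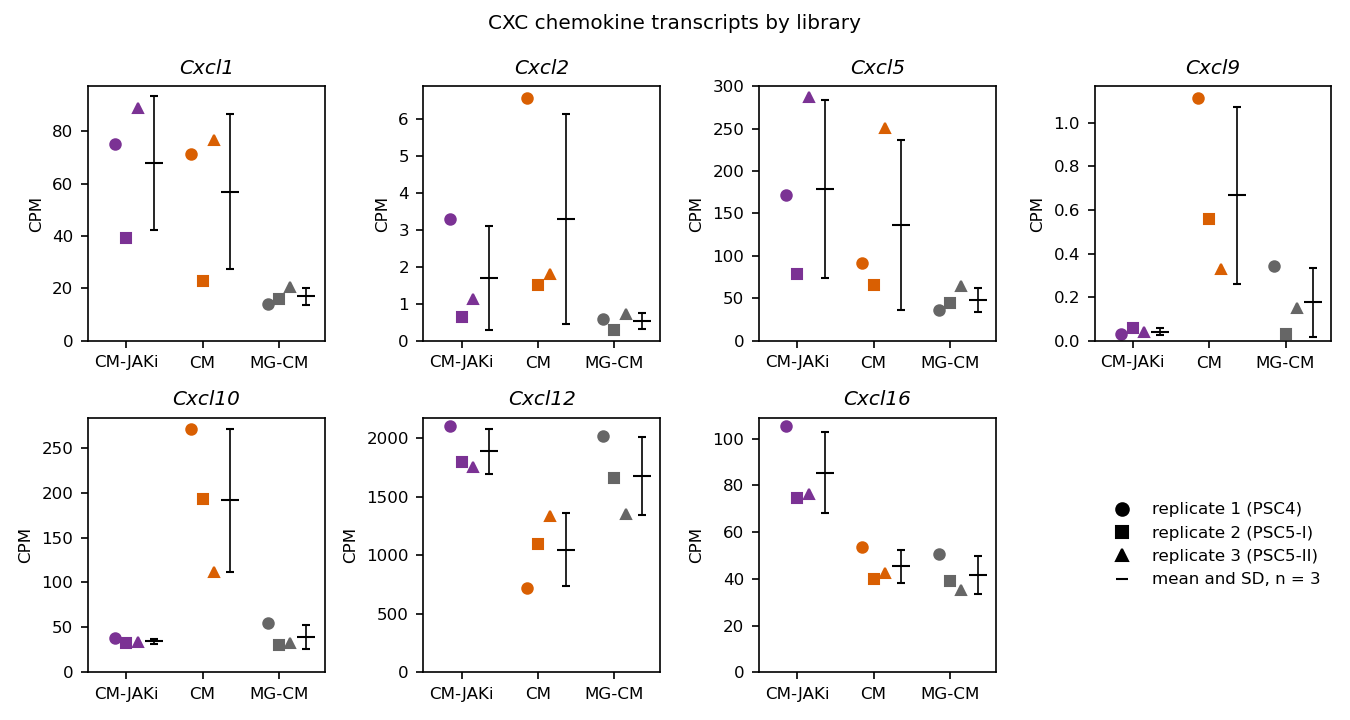
CPM (TMM-scaled) of 7 CXC chemokine transcripts in each library, with marker shape for the replicate number and the black bar for mean and SD of 3 libraries. Cxcl10 stands high in CM alone, Cxcl9 is highest in CM with 1 MG-CM library above the lowest CM library, Cxcl16 stands high in CM-JAKi alone, and Cxcl1 and Cxcl5 stand above MG-CM in both other conditions.

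CM set against MG-CM addresses the effect of tumour organoid medium on the ligands. A serum content is recorded for MG-CM alone (5% FBS), so a difference in serum cannot be told apart from organoid conditioning. The ELR ligands and the Cxcr3 ligands had higher means in CM, Cxcl12 had a lower mean and Cxcl16 had nearly the same one. Of the 7 members tested, 2 rose, Cxcl1 and Cxcl10, against 4.85% of all genes called higher. With the block 5 were called higher, adding Cxcl2, Cxcl5 and Cxcl9, against 11.6% of all genes. edgeR called 0 members lower, against 5.39% of all genes, and again 0 with the block, against 12.8%. Cxcl12 was the 1 member lower at an unadjusted p below 0.05 and the 1 called lower by DESeq2. The groups did not overlap for 4 members that were higher (Cxcl1, Cxcl2, Cxcl5 and Cxcl10), against 16.0% of all genes, and for 1 that was lower (Cxcl12), against 16.8%. The median log2 fold change of the 7 was 1.75, beside 0.01 over all genes tested.

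CM-JAKi set against CM addresses the effect of the inhibitor in that medium. The Cxcr3 ligands Cxcl9 and Cxcl10 fell, Cxcl12 and Cxcl16 rose, and none of the 3 ELR ligands was called. These 2 higher and 2 lower calls among 7 members compare with 10.1% and 8.93% of all genes. The block also gave 2 and 2, against 18.6% and 15.6%. The same 4 members were those whose groups did not overlap, against 20.1% of all genes higher and 18.3% lower. Among them Cxcl9 passed the low-count filter only through libraries of CM and MG-CM, which limits what its call and its lack of overlap show. The median log2 fold change of the members was 0.25, beside 0.01 over all genes. In CM-JAKi against MG-CM, 1 member rose, Cxcl16, against 0.286% of all genes, and with the block 3 were higher, against 1.85%. There 0 of the 7 members were called lower by edgeR, against 0.720% of all genes, 0 with the block, against 2.40%, 0 by DESeq2 and 0 without adjustment. The groups did not overlap for 3 members that were higher (Cxcl1, Cxcl5 and Cxcl16), against 8.87% of all genes, and for 0 that were lower, against 8.24%.

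**Figure D3:**
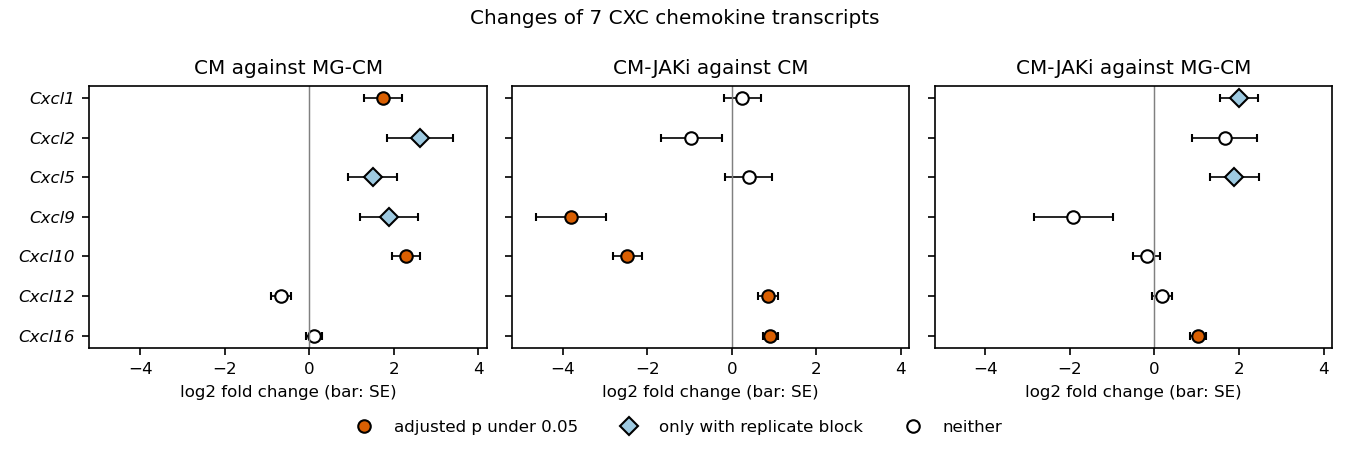
Log2 fold changes with standard errors (bars) of 7 CXC chemokine transcripts in the 3 comparisons, each from 3 libraries a group. Orange points passed an adjusted p under 0.05, blue diamonds passed only with the replicate number as a block, and open points passed in neither fit. Cxcl9 and Cxcl10 lie to the right in CM against MG-CM and far to the left in CM-JAKi against CM.

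Among the ELR ligands, Cxcl1, a neutrophil attractant also known as KC, had 74.9, 39.4 and 88.9 CPM in CM-JAKi replicates 1, 2 and 3. It had 71.4, 23.0 and 76.5 CPM in CM and 14.3, 16.0 and 20.7 CPM in MG-CM. The libraries with tumour organoid medium were all above those in MG-CM, with or without the inhibitor, and replicate 2 was the lowest of its group in both. Cxcl1 rose in CM by 1.75 ± 0.45 (adjusted p = 0.0447). The call was lost without MG-CM replicate 1 (adjusted p = 0.109), 2 (0.153) or 3 (0.0841), and without CM replicate 1 (0.12) or 3 (0.104), and it held without CM replicate 2 (0.0159). Under the inhibitor its change from CM was 0.25 ± 0.44 (adjusted p = 0.724), higher in 3 of 3 same-numbered pairs. Against MG-CM, CM-JAKi was higher by 1.99 ± 0.46, which missed the threshold (adjusted p = 0.0956) and passed with the block (0.0249).

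Cxcl5, another Cxcr2 ligand, had 172, 78.6 and 287 CPM in CM-JAKi, 92.0, 65.9 and 251 CPM in CM, and 36.1, 44.6 and 64.1 CPM in MG-CM. Every CM and CM-JAKi library was above every MG-CM library, as for Cxcl1, while replicate 3 was the highest in each condition. The difference of CM from MG-CM was 1.50 ± 0.58 (adjusted p = 0.131, 0.0279 with the block). It was 0.71 ± 0.48 when CM replicate 3 was left out. The difference of CM-JAKi from CM was 0.39 ± 0.56 (adjusted p = 0.659), or 1.17 ± 0.50 without CM replicate 3, and that of CM-JAKi from MG-CM was 1.89 ± 0.58 (adjusted p = 0.242, 0.0347 with the block). Over the 9 libraries Cxcl5 and Cxcl1 kept closest to each other of all pairs of members, with a root mean square difference of 0.41 in log2 CPM after each gene's mean was taken off.

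Cxcl2, also known as MIP-2, was scarce. It had 107, 22 and 29 counts in CM-JAKi, 189, 49 and 55 counts in CM, and 17, 9 and 19 counts in MG-CM, or 3.29, 0.658 and 1.12 CPM, 6.57, 1.52 and 1.80 CPM, and 0.583, 0.305 and 0.720 CPM. All CM libraries were above all MG-CM libraries, and replicate 1, from PSC4, was well above the PSC5 libraries in CM and in CM-JAKi. The difference of CM from MG-CM was 2.62 ± 0.78 (adjusted p = 0.0673, 0.00829 with the block, 0.00595 in DESeq2), and without CM replicate 1 it was 1.63 ± 0.67. CM-JAKi was below CM in 3 of 3 same-numbered pairs, by 0.98, 1.13 and 0.65 on the log2 scale, although the groups overlapped and no call was made (-0.96 ± 0.72, adjusted p = 0.379, 0.0775 with the block). That difference was -1.89 ± 0.72 without CM-JAKi replicate 1 and 0.025 ± 0.64 without CM replicate 1. Cxcl3, a neutrophil attractant of the same gene cluster that is not among the 8, had 66, 7 and 12 counts in CM-JAKi, 98, 15 and 32 in CM and 5, 4 and 8 in MG-CM (CM against MG-CM, adjusted p = 0.0955, 0.0149 with the block). Cxcl3 passed the low-count filter only through libraries with tumour organoid medium, which limits what its blocked call against MG-CM shows.

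Of the Cxcr3 ligands, Cxcl10, also called IP-10, had 38.0, 32.4 and 33.3 CPM in CM-JAKi, 270, 193 and 111 CPM in CM, and 54.7, 30.1 and 32.7 CPM in MG-CM. The CM libraries stood above all others, and the CM-JAKi libraries lay within a narrow range that overlapped MG-CM. Cxcl10 rose in CM against MG-CM by 2.29 ± 0.33 (adjusted p = 0.0099), and of the 6 libraries only the omission of MG-CM replicate 2 ended the call (adjusted p = 0.052). It fell in CM-JAKi against CM, at -2.47 ± 0.33 (adjusted p = 0.00275), and kept that call without each library in turn. CM-JAKi differed from MG-CM by -0.18 ± 0.32 (adjusted p = 0.918), and 2 of 3 pairs were higher. Without MG-CM replicate 1 this small difference had the opposite sign (0.14 ± 0.31).

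Cxcl9, also called MIG, was near the floor of detection. It had 1, 2 and 1 counts in CM-JAKi, 32, 18 and 10 in CM, and 10, 1 and 4 in MG-CM. Each CM-JAKi library was below each CM library, while CM and MG-CM met at 10 counts in raw terms and overlapped in CPM. Summed over libraries, 4 counts in CM-JAKi against 60 in CM gave a ratio of 0.0665 (exact 95% interval 0.0175 to 0.179, counting error only), and 60 in CM against 15 in MG-CM gave 3.72 (2.09 to 7.05). Cxcl9 fell in CM-JAKi against CM (adjusted p = 0.0157), and the call was lost without CM-JAKi replicate 2 (0.058) or 3 (0.0515). The filter's minimum count was 10, so Cxcl9 was kept for testing through libraries of CM and MG-CM alone. With only the CM-JAKi and CM libraries it did not pass the filter, so this call is not independent of how the gene was kept. In CM against MG-CM it was higher in 3 of 3 pairs and was called only with the block (adjusted p = 0.111, 0.0341 with the block), or with a term for cell line (0.0251). The fitted difference of 1.89 ± 0.68 was 2.82 ± 0.77 when MG-CM replicate 1 was left out. For CM-JAKi against MG-CM the ratio was 0.247 (0.0597 to 0.776), with 1 of 3 pairs higher and no call (adjusted p = 0.527).

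Cxcl9 and Cxcl10 are also made by myeloid cells, so leukocyte markers were read beside them. Of 10 such markers, 9 were in the table. The pan-leukocyte gene Ptprc had 1 count in each CM-JAKi library, 0, 1 and 0 counts in CM and 0 in MG-CM. The myeloid integrin Itgam had 0 counts in CM-JAKi and CM and 2, 0 and 3 in MG-CM, and the T cell gene Cd3e had 0 or 1 count in each library. The summed level of the list was 16.0 to 34.5 CPM in CM-JAKi, 34.4 to 119 CPM in CM and 23.0 to 35.2 CPM in MG-CM. Most of it was Cd14, an endotoxin co-receptor, at 29.6, 12.8 and 15.5 CPM in CM-JAKi, 114, 30.3 and 49.2 CPM in CM and 32.0, 19.6 and 28.8 CPM in MG-CM. Cd14 fell in CM-JAKi against CM (-1.74 ± 0.50, adjusted p = 0.041), and its difference between CM and MG-CM was called only with the block (1.27 ± 0.49, adjusted p = 0.132, 0.0164 with the block). The neutrophil gene S100a8 had 54, 3 and 4 counts in CM-JAKi, 42, 10 and 29 in CM and 3, 2 and 2 in MG-CM (CM against MG-CM, adjusted p = 0.103, 0.0183 with the block). S100a8 too passed the filter only through libraries with tumour organoid medium, which limits what its blocked call shows. Lyz2 had differences of the opposite sign with no call (0.92 ± 0.54 in CM-JAKi against CM, -0.37 ± 0.56 in CM against MG-CM), and Cd68 and Csf1r had changes of -0.26 to 0.23 in these comparisons. The part of such cells in the Cxcl9 and Cxcl10 results was not tested.

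Cxcl12, or SDF-1, went the other way. It had 2107, 1798 and 1755 CPM in CM-JAKi, 717, 1093 and 1337 CPM in CM, and 2016, 1656 and 1350 CPM in MG-CM. CM was below both other conditions in each replicate, with a wide gap in replicate 1 and almost none between CM and MG-CM in replicate 3. The pairs of CM with MG-CM differed by -1.49, -0.60 and -0.01 on the log2 scale, and the change of -0.67 ± 0.23 missed the threshold in edgeR (adjusted p = 0.1), while DESeq2 called it (0.0238). Cxcl12 rose in CM-JAKi against CM by 0.85 ± 0.23 (adjusted p = 0.0372), with pairs at 1.55, 0.72 and 0.39. It lost that call without CM-JAKi replicate 1 (adjusted p = 0.0829), 2 (0.0963) or 3 (0.0693) and without CM replicate 1 (0.0782) or 2 (0.0786). CM-JAKi and MG-CM differed by 0.17 ± 0.23 (adjusted p = 0.89). The endothelial marker Tek moved in the same directions, at 45, 55 and 75 counts in CM-JAKi, 15, 28 and 26 in CM and 73, 75 and 56 in MG-CM. Both changes were called (adjusted p = 0.0255 in CM-JAKi against CM and 0.0224 in CM against MG-CM). The other endothelial markers tested, Pecam1, Kdr and Vwf, were lower in CM-JAKi against CM, unlike Tek (-0.49 ± 0.43, -0.23 ± 0.30 and -0.83 ± 0.42). In CM against MG-CM they were at 0.62 ± 0.44, -0.87 ± 0.29 and -0.048 ± 0.41, and they were not called in either comparison. The 6 endothelial markers summed to 3.47 to 5.41 CPM in CM-JAKi, 3.12 to 4.62 CPM in CM and 5.65 to 7.55 CPM in MG-CM, and their part in the Cxcl12 result was not tested.

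Cxcl16 had a pattern of its own. It had 105, 74.7 and 76.2 CPM in CM-JAKi, 53.5, 40.1 and 42.6 CPM in CM, and 50.9, 39.1 and 35.4 CPM in MG-CM. The CM-JAKi libraries lay above all others, and CM and MG-CM overlapped. CM differed from MG-CM by 0.12 ± 0.19 (adjusted p = 0.725), a difference that without CM replicate 1 was -0.019 ± 0.20. Cxcl16 rose in CM-JAKi against CM by 0.91 ± 0.19 (adjusted p = 0.013), with pairs at 0.98, 0.90 and 0.84, and kept the call without each single library. It also rose in CM-JAKi against MG-CM, by 1.03 ± 0.19 (adjusted p = 0.0443, 0.0012 with the block), with pairs at 1.05, 0.93 and 1.11. That call was lost without CM-JAKi replicate 1 (adjusted p = 0.0692), 2 (0.103) or 3 (0.106) and without MG-CM replicate 2 (0.16) or 3 (0.159).

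Cxcl14, an ancient chemokine made mainly by epithelia and some fibroblasts, had 0 counts in each CM-JAKi library, 2, 0 and 2 counts in CM, and 0, 0 and 2 counts in MG-CM. A count of 0 allows up to 0.0898 to 0.116 CPM across the CM-JAKi libraries, taking 3 counts as the limit. No difference was detectable at this depth.

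Ratios between members within a library need no scaling, and they are given here for single pairs of genes, which do not stand for their groups. The ELR ligand Cxcl2 was nearest in pattern to Cxcl1 (root mean square difference 0.86), and it was nearer to Cxcl10 (0.95) than to Cxcl5 (1.13). The count of Cxcl10 over that of Cxcl1 was 0.507, 0.822 and 0.375 in CM-JAKi, 3.79, 8.40 and 1.45 in CM and 3.84, 1.88 and 1.58 in MG-CM. All CM-JAKi libraries were below all CM and all MG-CM libraries. The geometric mean ratio in CM-JAKi was 0.15 times that in CM (exact two-sided permutation p = 0.1, the smallest that 3 against 3 libraries allow) and 0.239 times that in MG-CM (also p = 0.1, exact permutation test). CM and MG-CM overlapped in this ratio (exact permutation p = 0.7). Cxcl16 over Cxcl10 was 2.77, 2.31 and 2.29 in CM-JAKi, 0.198, 0.208 and 0.383 in CM and 0.929, 1.30 and 1.08 in MG-CM, with no overlap between any pair of conditions (exact permutation p = 0.1 for each of the 3 comparisons). These ratios were chosen after the values were seen.

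The make-up of the 8 transcripts together was read per transcript length. The sum of the members was 848 ± 113 CPM per kb in CM-JAKi, 657 ± 102 in CM and 631 ± 107 in MG-CM (SD, n = 3), with overlapping ranges. Cxcl12 was 71.6 ± 8.49% of that sum in CM-JAKi, 50.7 ± 11.5% in CM and 84.4 ± 3.20% in MG-CM. Cxcl10 made up 3.35 ± 0.313% in CM-JAKi, 25.0 ± 12.4% in CM and 5.01 ± 0.994% in MG-CM. The ELR ligand Cxcl5 made up 13.0 ± 6.86% in CM-JAKi, 12.4 ± 7.16% in CM and 5.10 ± 2.31% in MG-CM, with overlapping ranges, and Cxcl1 made up 8.21 ± 2.36%, 8.93 ± 4.30% and 2.94 ± 1.04% in the same order.

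**Figure D4:**
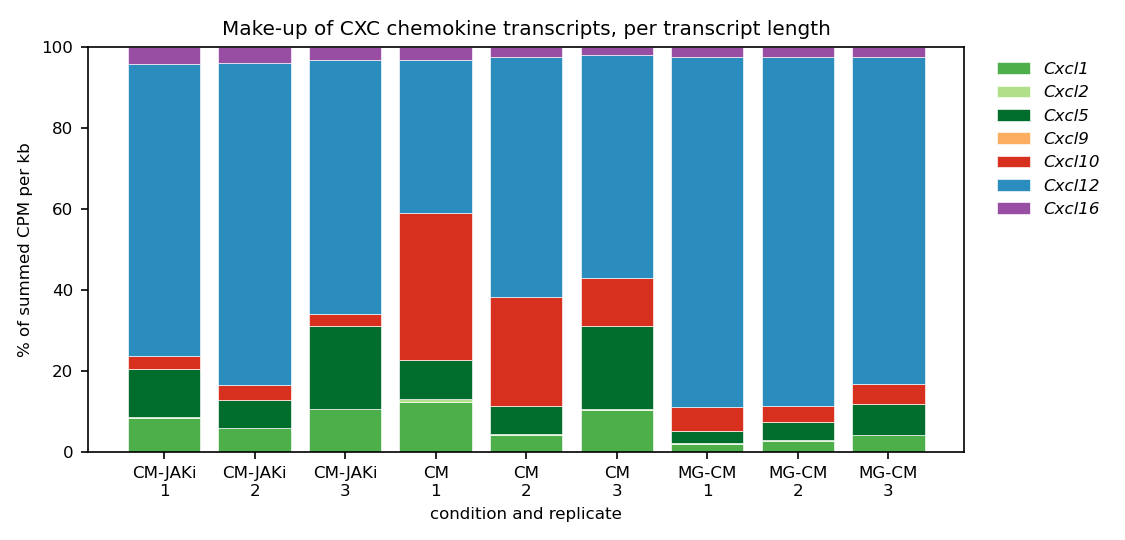
Share of each CXC chemokine in the summed CPM per kb of transcript, in percent, for each library. Cxcl12 (blue) holds 50.7% on average in CM against 71.6% in CM-JAKi and 84.4% in MG-CM, and Cxcl10 (red) is widest in CM. Cxcl14, under 0.01% in each library, is left out.

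The changes in PSC4, with 1 library a condition, were set against those in PSC5, and no member passed the test of a line difference. The standard errors and p-values of this test rest on the spread between PSC5 libraries alone and hold no spread within PSC4. For Cxcl12 the change in CM against MG-CM was -1.49 in PSC4 and -0.31 on average in PSC5, a difference between lines of -1.18 ± 0.26 (adjusted p = 0.145, unadjusted p = 0.00271, edgeR interaction test). In CM-JAKi against CM the changes were 1.55 in PSC4 and 0.56 in PSC5 (difference 1.01 ± 0.26, adjusted p = 0.214). For Cxcl2 the change in CM against MG-CM was 3.35 in PSC4 and 1.67 in PSC5 (adjusted p = 0.32). Cxcl10 changed by 2.30 and 2.22 in PSC4 and PSC5 (adjusted p = 0.985), and Cxcl16 in CM-JAKi against CM by 0.98 and 0.87 (adjusted p = 0.802). Of the 7 members, edgeR called 0 in either contrast. Over all 13613 genes it called 31 in CM against MG-CM and 50 in CM-JAKi against CM. With so few calls over all genes, 0 among the members does not show that the lines changed alike. Cxcl12 in both contrasts and Cxcl2 in CM against MG-CM had the larger change in PSC4, and line and medium source cannot be told apart.

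Most receptors of these ligands had few or no counts in the stellate cells. Of 8 CXC receptors and scavengers listed, 6 were in the table and 2 passed the filter. Cxcr2, the receptor of the ELR ligands, had 0 to 3 counts in each library, and Cxcr4 had 1 to 10. Cxcr7, the Cxcl12 scavenger now named Ackr3, had 18.4, 3.59 and 3.17 CPM in CM-JAKi, 139, 32.8 and 56.7 CPM in CM and 45.5, 13.5 and 17.4 CPM in MG-CM. The inhibited libraries lay below every CM library, and PSC4 was the highest in each condition. Cxcr7 fell in CM-JAKi against CM, at -3.18 ± 0.85 (adjusted p = 0.0334), and the change in CM against MG-CM of 1.58 ± 0.79 was called only with the block (adjusted p = 0.232, 0.00502 with the block). Cxcr6, the receptor of Cxcl16, had 4 to 27 counts and was not called. Of 7 other CXC ligands listed, 6 were in the table and only Cxcl3 passed the filter, with Pf4, Ppbp, Cxcl13, Cxcl15 and Cxcl17 at 0 to 6 counts a library.

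Transcription factors and mRNA decay genes that act on these ligands were read from a list of 16. In CM against MG-CM 6 rose and 0 fell by edgeR, beside 4.85% and 5.39% of all genes (0 lower by DESeq2, with the block and at an unadjusted p under 0.05), with a median log2 fold change of 0.22. Those called were the interferon factors Stat2 (1.16 ± 0.24), Irf7 (1.99 ± 0.33) and Irf9 (0.75 ± 0.18), the NF-kB subunit Relb (0.63 ± 0.13), the NF-kB cofactor Nfkbiz (1.04 ± 0.22), and the hypoxia factor Hif1a (1.45 ± 0.25). In CM-JAKi against CM, 6 fell and 0 rose, beside 8.93% and 10.1% of all genes, and the median was -0.27. The block gave 8 lower and 1 higher, beside 15.6% and 18.6% of all genes. DESeq2 gave 7 lower and 2 higher, and 2 were higher before adjustment, with no share over all genes given for either. The 6 were Stat2, Stat3, Irf1, Irf7, Irf9 and Hif1a. Irf7, a master factor of interferon transcription, fell to 4.40, 5.39 and 4.72 CPM in CM-JAKi, against 171, 280 and 161 CPM in CM (-5.40 ± 0.40, adjusted p = 0.000201), below its level in MG-CM as well. The NF-kB genes Nfkb1, Nfkb2, Rela, Relb, Rel and Nfkbia had changes of -0.17 to 0.25 there and were not called. The other NF-kB genes of the list were further from 0, with Nfkbiz at -0.50 ± 0.22 (adjusted p = 0.14, 0.0111 with the block) and Tnfaip3, an NF-kB inhibitor, at 1.01 ± 0.34 (adjusted p = 0.0715, 0.058 with the block). The mRNA decay genes Zfp36 (-0.37, adjusted p = 0.0641, 0.0167 with the block) and Zfp36l1 (0.53, adjusted p = 0.0848, 0.036 with the block) were called only with the block.

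Among 11 receptors of cytokines that induce CXC ligands, edgeR called 0 in CM against MG-CM, beside 4.85% of all genes higher and 5.39% lower. The block gave 4 higher (Il1rap, Ifnar1, Ifnar2 and Osmr), beside 11.6% of all genes. DESeq2 gave 2 higher, and 3 were higher before adjustment (p below 0.05). In CM-JAKi against CM 3 fell and 0 rose, beside 8.93% and 10.1% of all genes. Those that fell were the interleukin 1 co-receptor Il1rap (-1.41 ± 0.33), the oncostatin M receptor Osmr (-1.02 ± 0.14) and the shared interleukin 6 subunit Il6st (-0.59 ± 0.13). With the block 5 were lower, beside 15.6% of all genes. The block added the interleukin 1 receptor Il1r1 (-0.79 ± 0.37, adjusted p = 0.17, 0.0129 with the block) and the TNF receptor Tnfrsf1a (-0.34 ± 0.15, adjusted p = 0.152, 0.0399 with the block). The interferon receptor genes Ifngr1 and Ifnar1 were not called (0.057 and -0.0012). Of 10 genes that cleave, shed or hold chemokines, 1 rose and 0 fell in CM against MG-CM, beside 4.85% and 5.39% of all genes. The 1 that rose was the macrophage elastase Mmp12, which trims ELR ligands. With the block Mmp2 (adjusted p = 0.0233) and Sdc1 (0.00321) were also higher and Sdc2 (0.0431) was lower, beside 11.6% and 12.8% of all genes. DESeq2 gave 1 lower, and 2 were lower at an unadjusted p below 0.05. Mmp12 had 10 to 13 counts in CM-JAKi, 31 to 91 in CM and 1 to 2 in MG-CM, and it fell in CM-JAKi against CM (-2.34 ± 0.43, adjusted p = 0.0086). The filter's minimum count was 10, so Mmp12 was kept only through libraries with tumour organoid medium. That limits what its call against MG-CM shows. In CM-JAKi against CM, 4 of these 10 genes fell and 1 rose, beside 8.93% and 10.1% of all genes. With the block 4 were lower and 2 higher, beside 15.6% and 18.6%. Besides Mmp12, the syndecans Sdc1, Sdc3 and Sdc4, which hold chemokines on heparan sulphate, fell (-1.28 ± 0.28, -1.09 ± 0.10 and -0.43 ± 0.12). Sdc3 was also lower in CM-JAKi against MG-CM (-1.16 ± 0.10, adjusted p = 0.00225) and was not called in CM against MG-CM. Sdc2, the remaining syndecan, was higher in 3 of 3 pairs (0.50 ± 0.19, adjusted p = 0.1, 0.0441 with the block), and the gelatinase Mmp9 rose (1.73 ± 0.32, adjusted p = 0.00865). Adam10, the sheddase of Cxcl16, and Adam17 were not called in any comparison.

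**Figure D5:**
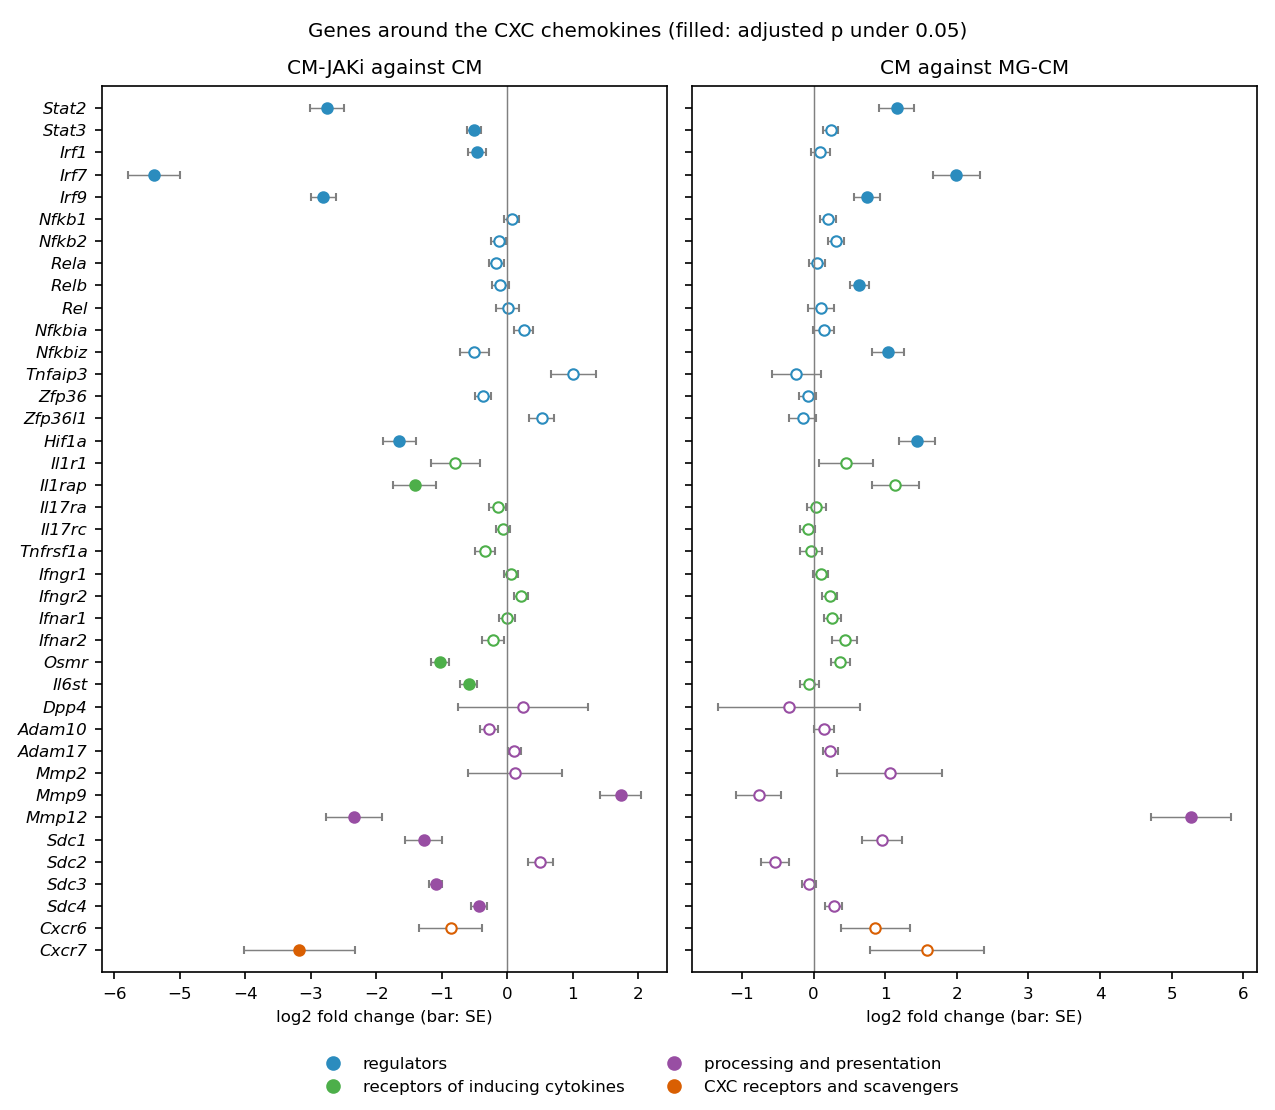
Log2 fold changes with standard errors (bars) of regulators, cytokine receptors, processing genes and CXC receptors, in CM-JAKi against CM (left) and CM against MG-CM (right). Filled points passed an adjusted p under 0.05. Stat2, Stat3 and the IRF genes at the top lie left of 0 with the inhibitor, Irf7 farthest at -5.40, and of the NF-kB genes under them Nfkbiz lies at -0.50 and Tnfaip3 at 1.01.

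Outside the family, the genes closest in pattern over the 9 libraries were taken by the smallest root mean square difference in log2 CPM after each gene's mean was removed, among 10237 genes. Cxcl10 was nearest to Oasl1 (0.30), H2-T23 (0.35) and Sema6b (0.35). Oasl1, an antiviral OAS-like gene, had 7.19 ± 1.66 CPM in CM-JAKi, 54.9 ± 17.5 in CM and 9.15 ± 4.45 in MG-CM. Cxcl9 was nearest to Sema6b (0.34), Samd9l (0.49) and Oasl1 (0.50), so it shared Oasl1 and Sema6b with Cxcl10. Cxcl1 was nearest to Rgs2 (0.45), Lif (0.46) and Ptgs2 (0.52), and Ptgs2, the inducible prostaglandin synthase, had 350 ± 127 CPM in CM-JAKi, 505 ± 394 in CM and 140 ± 61.4 in MG-CM. Cxcl12 was nearest to Atp2b4 (0.10), Paqr8 (0.11) and Bmf (0.13), and Cxcl16 to Pik3c2b (0.19), Igsf3 (0.20) and Zfp827 (0.20).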

How the data were processed

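Total RNA depleted of ribosomal RNA was sequenced from 9 stellate cell libraries made with a stranded TruSeq kit, per the labels' protocols. Tools listed in the submitters' processing notes are RSEM 1.2.29, STAR 2.5.1b and DESeq2, and the builds listed are mm9 and NCBIM37, with no role given. The deposited values were read as estimated counts of the expected count kind, made by the authors and held as whole numbers, with no scaling.

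The tests ran in edgeR 4.0.16 and limma 3.58.1 under R 4.3.3. Genes were filtered with filterByExpr (minimum count 10, minimum total 15), scaled by TMM, and fitted together over 9 libraries by the quasi-likelihood method with robust estimation, checked on simulated counts. DESeq2 1.42.0, other scalings, no filter, a replicate block, a cell line term and omitted libraries were the alternatives. Counts of members and list genes by DESeq2 or before adjustment have no share of all genes by direction beside them. The log2 CPM scale used a prior count of 2. Libraries of 1 replicate number share a line by the labels. After group means were removed, they correlated across genes at 0.291 to 0.680, against -0.536 to 0.279 for other numbers. Replicates of a group differed by chi-square values of 15.5 to 113 per degree of freedom, so none was a copy. Members and lists, and the rule for named genes (all 8 members, called genes of the lists, the 3 nearest genes of each called member), were chosen with earlier results of these data known. One gene of the regulator list is not reported here. The labels give each replicate number its own medium source. Intervals and floors cover counting error only.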

Additional observations from a re-analysis of the deposited data

How the results depend on the processing

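With the replicate block the members called higher in CM against MG-CM numbered 5 in place of 2, and those in CM-JAKi against MG-CM 3 in place of 1, while all genes called numbered 3325 in place of 1394 in CM against MG-CM, 4655 in place of 2585 with CM-JAKi set against CM, and 579 in place of 137 with CM-JAKi set against MG-CM. The block changed no other call of a member. With a cell line term 4 members were higher in CM against MG-CM, and all genes called were 3216, 4532 and 523 in the 3 comparisons. DESeq2 gave 1 member lower in CM against MG-CM and 2 higher in CM-JAKi against MG-CM, with 2516 and 512 genes called there. Without the low-count filter 1 member was higher in CM against MG-CM, where Cxcl1 lost its call (adjusted p = 0.0632). Fits on only the 6 libraries compared left 1 member higher in CM against MG-CM and 1 higher and 1 lower in CM-JAKi against CM, with 793 and 1655 genes called, and the calls of Cxcl1 (adjusted p = 0.0646) and Cxcl12 (0.0638) were lost, while Cxcl9 did not pass the filter in CM-JAKi against CM. In CM-JAKi against MG-CM the same restriction ended the call of Cxcl16 (0.0636) and called Cxcl1 (0.0433). The cause was not tested.

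Leaving out libraries or a whole replicate number gave 0 to 2 members higher and 0 lower in CM against MG-CM, 0 to 2 higher and 0 to 2 lower in CM-JAKi against CM, and 0 to 1 higher and 0 lower in CM-JAKi against MG-CM. All genes called ranged from 8 to 1713, 256 to 2970 and 0 to 465. Small changes that were not called turned sign in some omissions: in CM-JAKi against CM, Cxcl1 ranged from -0.13 to 0.52, Cxcl2 from -1.89 to 0.025 and Cxcl5 from -0.13 to 1.17; in CM against MG-CM Cxcl16 ranged from -0.019 to 0.29; in CM-JAKi against MG-CM Cxcl10 ranged from -0.34 to 0.14. Without all of any 1 replicate number, Cxcl1 lost its call in CM against MG-CM (adjusted p = 0.203, 0.0726 and 0.21 without 1, 2 and 3). Without all of replicate 2 or 3, calls were also lost for Cxcl9 in CM-JAKi against CM (0.108 and 0.0977), Cxcl12 there (0.252 and 0.078) and Cxcl16 in CM-JAKi against MG-CM (0.44 and 0.442). Without all of replicate 2, Cxcl10 lost its calls in CM against MG-CM (adjusted p = 0.168) and CM-JAKi against CM (0.0798), and Cxcl16 lost its call in CM-JAKi against CM (0.14). Without all of replicate 3, Cxcl10 lost its call in CM against MG-CM (adjusted p = 0.0602) and Cxcl16 in CM-JAKi against CM (0.0921). Without all of replicate 1, Cxcl9 fell under the filter and has no value. Scaling by DESeq2 size factors or library size alone changed no call of a member. With the longest coding transcript of each gene, a choice made after the values were seen, Cxcl12 was 59.0%, 38.0% and 75.8% of the summed level in CM-JAKi, CM and MG-CM.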

Other observations

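The proportion of Cxcl10 to Cxcl12 varied little between the 3 inhibited libraries. Each gene alone also lay in a narrow range there, at 32.4 to 38.0 CPM for Cxcl10 and 1755 to 2107 CPM for Cxcl12. A link between the genes was not tested. The count of Cxcl10 over that of Cxcl12 across the 3 libraries was 0.0180, 0.0180 and 0.0190 in CM-JAKi. It was 0.377, 0.177 and 0.0832 in CM, and 0.0272, 0.0182 and 0.0242 in MG-CM. The CM libraries were above all others (exact permutation p = 0.1 against each other condition, the smallest possible with 3 against 3). Their spread on the log2 scale was 1.09, against 0.04 in CM-JAKi and 0.30 in MG-CM (SD, n = 3). CM-JAKi overlapped MG-CM in this proportion (exact permutation p = 0.2).

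Cxcl16 over Cxcl12 was 0.0501, 0.0416 and 0.0434 in CM-JAKi, 0.0747, 0.0367 and 0.0318 in CM and 0.0252, 0.0236 and 0.0262 in MG-CM. Both conditions with tumour organoid medium were above MG-CM in every library (exact permutation p = 0.1 for each), and they overlapped with each other (exact permutation p = 1). These proportions were chosen after the values were seen.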
